A study of Mus musculus with 8 samples.

Results

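The genes described here are 10 collagens that do not form the banded fibrils of types I and III: the basement membrane chains Col4a1, Col4a2 and Col4a5, the microfibril chains Col6a1, Col6a2 and Col6a3, the short-chain network collagens Col8a1 and Col8a2, and the multiplexins Col15a1 and Col18a1. They were chosen by name, as the rows of the deposited table whose Ensembl identifiers carry these symbols, and all 10 were found among its 54532 genes. Earlier results of these data were known at that point, so shares of all genes set beside their counts are descriptions. RNA was sequenced from 8 libraries of cardiac fibroblasts of the mouse, cells that lay down much of the heart's matrix, all collected at day 7. Cells carrying a control vector were kept in complete medium (2 libraries) or put through osteogenic differentiation (2 libraries). Cells overexpressing EphrinB2, the Efnb2 product that Eph receptors bind on neighbouring cells, were kept in complete medium (2 libraries) or put through osteogenic differentiation (2 libraries). The vector, the agents of the osteogenic medium, the strain and the age of the mice were not given in the sources used here. The labels do not say whether the libraries of a pair are separate cultures, so p-values reflect no more than the spread from library to library, perhaps a technical one.

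Collagen IV assembles into the sheet-like network of basement membranes, in which the chains of Col4a1 and Col4a2 join in one trimer, and the chain of Col4a5 joins other type IV chains. Collagen VI forms thin beaded microfibrils close to cell surfaces from the products of Col6a1, Col6a2 and Col6a3, and is abundant in the interstitium of heart and skeletal muscle. Collagen VIII builds open lattices in vessel walls and in the membrane behind the cornea, and its chains can assemble alone or together. Collagens XV and XVIII are proteoglycans of basement membrane zones whose C-terminal fragments are known as restin and endostatin.

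The collagens differed in how far their levels shifted with the medium. Col15a1, Col8a2 and Col8a1 fell in osteogenic medium in both kinds of cell. Col6a2 fell in EphrinB2 cells. Transcripts of the collagen IV chains, Col6a1, Col6a3 and Col18a1 were also lower in every osteogenic library than in the complete medium libraries of the same cells, by amounts that did not pass the test. No collagen passed the test for EphrinB2 in either medium.

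The value given for each gene is FPKM, fragments scaled to exon length and sequencing depth. The length is that of the merged exons of all annotated transcripts. Levels can be compared between genes only as far as these lengths match the transcripts present, which was not tested. Estimated counted reads per library ran from 16493964 to 20550769. Efnb2, the overexpressed gene, stood at 5.93 ± 0.521 FPKM in vector libraries in complete medium (SD, n = 2, as throughout) and at 32.1 ± 1.12 in EphrinB2 libraries there. Under osteogenic differentiation Efnb2 was at 1.33 ± 0.0908 in vector libraries, and at 5.02 and 18.3 in EphrinB2 replicates 1 and 2. EphrinB2 cells exceeded vector cells in Efnb2 by 2.26 on the log2 scale in complete medium (SE 0.48, limma, adjusted p = 1) and by 2.21 in osteogenic medium (adjusted p = 0.567), so the overexpressed gene itself did not pass the test across all genes. Both EphrinB2 pairs differed within themselves more than the vector pairs did. The SD over genes of the log2 difference between replicates was 0.52 and 0.66 in EphrinB2 cells in complete and osteogenic medium, against 0.26 and 0.23 in vector cells. In these EphrinB2 pairs the difference went with the length of the genes (across 12994 genes, Spearman's rho 0.44 and 0.51, a description, since genes are not independent). EphrinB2 replicate 2 in complete medium and EphrinB2 replicate 1 in osteogenic medium, singled out in an earlier analysis of these data, are called the libraries that stood apart. All 10 fibroblast markers reached 1 FPKM in every library, and their summed level was 5093 to 6337 in complete and 2864 to 3282 in osteogenic medium. Without the fibrillar collagens Col1a1, Col1a2 and Col3a1 on that list, the other 7 summed to 1308 to 1404 in complete and, higher, 1580 to 2247 in osteogenic medium. The sum of 13 macrophage markers was 849 to 2086 in complete and 4059 to 8140 in osteogenic medium. Within the EphrinB2 pairs the macrophage sum was 1750 and 849 in complete medium against 8140 and 4059 in osteogenic medium, for replicates 1 and 2. Most of it was Lyz2 (1328 and 551 against 6061 and 2978). Some of the other macrophage markers, such as Adgre1, Csf1r and Mrc1, were lower in replicate 1 than in replicate 2 in both media. Others, such as C1qa, C1qb and C1qc, were higher in replicate 1 in both. Pericyte and smooth muscle markers (9 genes) summed to 826 to 1082 in complete and 465 to 930 in osteogenic medium, most of it Acta2 (760 to 1025 and 413 to 909). Of the 9, 2 were lower and 4 higher in every osteogenic library than in all complete ones. Adipocyte markers summed to 1.84 to 3.05 in complete and 25.8 to 61.9 in osteogenic medium, and cardiomyocyte markers to 0.733 to 0.937 and 6.12 to 15.5. In osteogenic medium each of these sums was mostly 1 gene, Fabp4 (24.0 to 60.0) and Tnnt2 (5.5 to 14.8). Adipoq and Plin1, or Myh6 and Actn2, were at or near 0. Epicardial markers summed to 18.9 to 22.8 and 15.9 to 19.6, and Schwann cell markers to 1.19 to 1.53 and 0.660 to 1.49. The part of other cells in the results was not tested, and in bulk RNA fewer cells of a type and less RNA per cell cannot be told apart.

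Genome positions show how these genes lie to each other, on build GRCm38 with the GENCODE M21 annotation. Col4a1 (chromosome 8, 11198423 to 11312826, minus strand) and Col4a2 (chromosome 8, 11312805 to 11449287, plus strand) are transcribed away from each other from starts 21 bases apart. The annotated genes overlap by 22 bases at these starts, chr8:11312805-11312826, printed here on the plus strand because the paired levels of these chains are a result below.
Col4a1 and Col4a2 shared start: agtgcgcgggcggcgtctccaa
Col6a1 (chromosome 10, 76708792 to 76726168) and Col6a2 (chromosome 10, 76595762 to 76623630) lie on the same strand with 85161 bases between them. Col6a3 is on chromosome 1 (90765923 to 90843971), Col18a1 on chromosome 10 (77052178 to 77166548) and Col4a5 on chromosome X (141475385 to 141689234). Col8a1 is on chromosome 16 (57624258 to 57754737), while Col8a2 (126286793 to 126314330) and Col15a1 (47208161 to 47313167) are both on chromosome 4. Genes on the opposite strand overlap the whole spans of Col4a1, Col4a2, Col4a5, Col15a1 and Col18a1 in the annotation. The strand setting of the counting was not given in the sources used here, so reads from exon stretches shared by such pairs cannot be told apart. Between Col4a1 and Col4a2 the shared stretch is the 22 bases above, of 7464 and 6619 bases of merged exons.

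The sequences upstream of the 3 genes that fell in both kinds of cell are shown because these genes passed the test in both. Whether they share control was not tested. All 10 members matched the RefSeq promoter table (build GRCm38.p6), with 12 start windows. Each sequence runs 5′ to 3′ on the gene's strand up to the base before its RefSeq start or first exon, and capitals mark the GC box, GGGCGG read on either strand. The windows are chr16:57754738-57754987 on the minus strand for Col8a1, chr4:126286544-126286792 on the plus strand for Col8a2 and chr4:47207762-47208011 on the plus strand for Col15a1.
Col8a1: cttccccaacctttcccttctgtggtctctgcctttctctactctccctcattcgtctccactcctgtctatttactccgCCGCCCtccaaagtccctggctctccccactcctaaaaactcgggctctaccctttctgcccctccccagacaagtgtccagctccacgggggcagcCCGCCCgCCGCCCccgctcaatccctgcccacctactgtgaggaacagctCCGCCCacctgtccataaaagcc
Col8a2: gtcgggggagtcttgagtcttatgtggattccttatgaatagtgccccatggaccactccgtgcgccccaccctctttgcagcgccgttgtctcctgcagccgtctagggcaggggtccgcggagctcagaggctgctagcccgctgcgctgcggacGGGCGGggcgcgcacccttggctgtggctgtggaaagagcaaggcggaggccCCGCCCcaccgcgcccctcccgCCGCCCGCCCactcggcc
Col15a1: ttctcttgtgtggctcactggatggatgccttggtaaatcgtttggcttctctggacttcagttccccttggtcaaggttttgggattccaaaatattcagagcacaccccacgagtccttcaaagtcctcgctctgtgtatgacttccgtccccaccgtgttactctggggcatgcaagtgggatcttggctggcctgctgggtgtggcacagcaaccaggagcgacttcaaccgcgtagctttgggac
The GC box, the motif of the Sp family of factors, occurred 4 times upstream of Col8a1 and 4 times upstream of Col8a2, where a pair of matches overlaps, and was not matched upstream of Col15a1. It was present in 32.7% of all 32851 RefSeq windows of 250 bases and in those of 6 of the 10 collagens. GC content was 60.8% for Col8a1, 70.0% for Col8a2 and 53.6% for Col15a1, against a median of 52.4%. None of CCAAT (33.8% of all windows), TATAAA (12.4%) and the AP-1 motif TGANTCA (6.75%) was matched on either strand in these 3 windows. A match describes letters only and is no site shown to be bound.

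In vector cells in complete medium, Col4a1 had the highest level of the 10 (913 ± 11.3 FPKM), followed by Col4a2 (839 ± 17.8), Col8a1 (513 ± 1.35), Col6a1 (309 ± 4.65) and Col4a5 (141 ± 2.50). Col6a2 stood at 86.0 ± 0.530, Col15a1 at 27.5 ± 1.55 and Col18a1 at 9.20 ± 0.776. Col6a3 (6.94 ± 0.280) and Col8a2 (6.88 ± 0.50) came last, and their ranges overlapped. Each other neighbour in this order was separated by more than the range of its libraries. In osteogenic medium the order in vector cells changed at 2 places: Col8a1 dropped below Col6a1, and Col15a1 dropped below Col18a1 and Col6a3 to stand next to Col8a2. EphrinB2 cells had this same order of means in osteogenic medium, with 5 of the 9 pairs of neighbours overlapping. In complete medium they differed from vector cells only in Col8a2, Col18a1 and Col6a3, whose ranges overlapped from one to the next. The 10 genes together took 1.99% and 1.96% of counted reads in vector cells in complete medium and 1.3% and 1.24% under differentiation. In EphrinB2 cells they took 1.87% and 2.25% in complete medium against 0.684% and 1.23% in osteogenic medium.

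**Figure D1:**
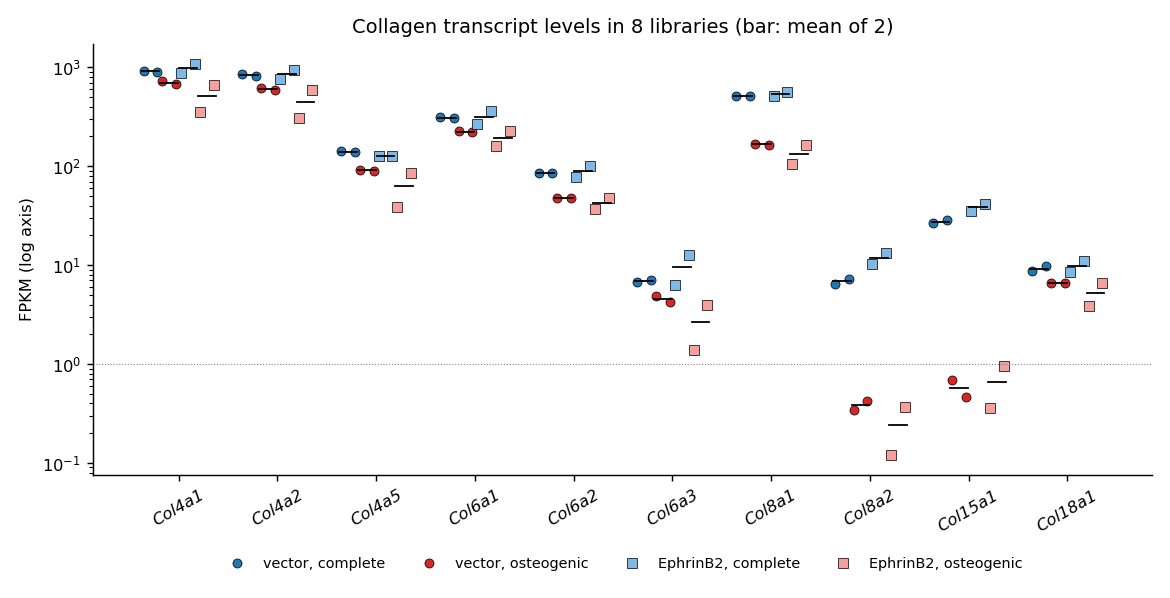
FPKM of the 10 collagens on a log axis, 1 point per library, with circles for vector and squares for EphrinB2 libraries, colours for the medium and bars for the mean of 2 libraries. The dotted line is 1 FPKM: Col8a2 and Col15a1 lie under it in all 4 osteogenic libraries and above it in all 4 libraries in complete medium.

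The effect of osteogenic differentiation was tested separately in vector and in EphrinB2 cells, as log2(FPKM + 1) in limma with all 8 libraries in the model, and genes are called where the adjusted p was under 0.05. In vector cells 3 of the 10 collagens fell and 0 rose, against 3.11% of the 12994 tested genes that fell. At an unadjusted p under 0.05 the count was 4, with 19.5% of all genes in either direction, and limma voom on recovered reads called 3. In EphrinB2 cells 4 of the 10 fell and 0 rose, against 5.44% of all tested genes that fell. At an unadjusted p under 0.05 all 10 were lower there, with 30.2% of all genes in either direction, and voom called 5. The voom counts are given without a share of all genes, so how unusual they are cannot be read from them. In both kinds of cell the osteogenic libraries lay below the complete ones without overlap for all 10 genes, an ordering found in 38.8% of all tested genes in vector and 23.6% in EphrinB2 cells. The median log2 difference over the 10 genes was −0.57 in vector cells and −1.08 in EphrinB2 cells, while that over all tested genes was −0.019 and 0.027. Over the 6430 tested genes of 4 kb or longer, the length class of all 10, it was −0.014 and −0.17. Of these, 3.34% and 7.15% were called as lower. All 10 passed the filter of 1 FPKM in 2 libraries, Col8a2 and Col15a1 only through their complete medium libraries, which favours a fall. Without both libraries that stood apart, 1 library is left in each EphrinB2 group, and the spread comes from the vector pairs alone. For EphrinB2 cells only sizes are therefore given here. All 10 were below 0, such as Col4a1 (−0.39), Col4a2 (−0.36), Col4a5 (−0.56), Col6a1 (−0.23) and Col6a3 (−0.56). In vector cells that fit compares the same 4 libraries as the next one. Fitted on the 4 vector libraries alone, the model called all 10 as lower, with 22.1% of all genes called as lower. On the 4 EphrinB2 libraries alone it called 2, Col15a1 and Col8a2, with 0.323% of all genes.

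**Figure D2:**
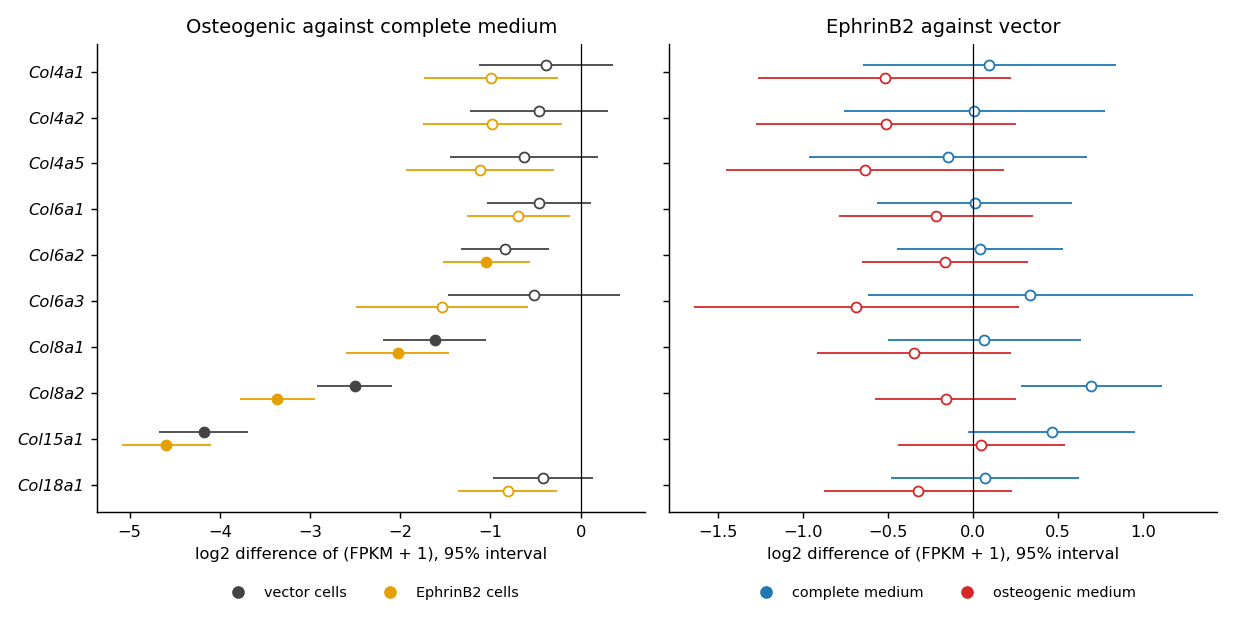
Log2 differences of (FPKM + 1) with 95% intervals from the model of 8 libraries, for osteogenic against complete medium (left) and EphrinB2 against vector (right); filled points passed the adjusted threshold of 0.05. Col15a1, Col8a2 and Col8a1 are filled in both kinds of cell on the left, and no point is filled on the right.

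Col8a1 encodes the more abundant chain of collagen VIII. Vector cells had 514 and 512 FPKM in complete medium against 169 and 164 in osteogenic medium. The EphrinB2 libraries were at 512 and 563 in complete medium against 105 and 163 in osteogenic medium. The complete medium libraries were close together in both kinds of cell, and none of the osteogenic libraries came near them. The mean was 3.08-fold lower in osteogenic medium in vector cells and 4.02-fold lower in EphrinB2 cells. Col8a1 thus fell by 1.62 on the log2 scale (SE 0.24, limma, adjusted p = 0.0102) in vector cells and fell by 2.03 (SE 0.24, adjusted p = 0.00374) in EphrinB2 cells. The call in vector cells was lost on leaving out any 1 of the 4 vector libraries (limma, adjusted p 0.105 to 0.121), while its log2 difference was −1.64 to −1.59. The call in EphrinB2 cells was lost with EphrinB2 libraries alone (−2.03, limma, adjusted p = 0.0907).

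Col8a2, the other chain of this network collagen, was far scarcer and moved further. Its level was 6.52 and 7.23 FPKM in vector cells in complete medium against 0.345 and 0.426 in osteogenic medium. EphrinB2 cells had 10.4 and 13.2 in complete medium against 0.119 and 0.370 in osteogenic medium. In reads these values stand for 549 and 604, 30 and 37, 900 and 981, and 11 and 32, so that the lowest rests on 11 reads (95% exact Poisson interval 5.49 to 19.7, counting error only). Every osteogenic library was low and every complete library was high. The mean FPKM was 17.8-fold lower in osteogenic medium in vector cells, and the 4 ratios between single libraries ran from 15.3 to 20.9. EphrinB2 cells had a mean 48.3-fold lower, with ratios from 28.1 to 111. On the log2(FPKM + 1) scale, on which changes of low genes come out too small, Col8a2 fell by 2.51 (SE 0.17, limma, adjusted p = 0.000626) in vector cells and fell by 3.36 (SE 0.17, adjusted p = 0.000221) in EphrinB2 cells.

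Both chains fell, by different amounts, and the ratio of Col8a1 to Col8a2 shifted with the medium. The ratio was 78.8 and 70.8 for vector cells in complete medium against 490 and 384 in osteogenic medium. EphrinB2 libraries gave 49.3 and 42.5 in complete medium against 880 and 440 in osteogenic medium. The ranges of the media did not overlap, and the EphrinB2 ratios in complete medium lay below the vector ratios there. With 2 libraries a group these ratios were not tested.

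Col15a1, a multiplexin found where basement membranes meet the interstitial matrix, had the lowest log2 difference of all 12994 tested genes in both kinds of cell. Vector cells had 26.4 and 28.6 FPKM in complete medium against 0.692 and 0.464 in osteogenic medium. EphrinB2 cells had 35.2 and 41.6 in complete medium against 0.360 and 0.948 in osteogenic medium. A transcript represented by 3146 to 4360 reads in each complete medium library was left with 47 to 116 in each osteogenic library. The mean was 47.7-fold lower in vector cells, with single-library ratios of 38.2 to 61.7, and 58.7-fold lower in EphrinB2 cells, with ratios of 37.1 to 116. Col15a1 fell by 4.18 on the log2 scale (SE 0.21, limma, adjusted p = 0.000212) in vector cells and fell by 4.59 (SE 0.21, adjusted p = 0.000176) in EphrinB2 cells. Markers of endothelial cells, which also make this collagen, were present at low levels. Their sum over 12 genes was 13.1 to 16.6 FPKM in complete and 10.7 to 14.8 in osteogenic medium, and none was at 0. In osteogenic medium 8 of the 12 were lower in every library than in all complete libraries, such as Cdh5, the cadherin of their junctions (1.59 to 2.98 against 0.371 to 0.602). The share of all genes with this ordering over both kinds of cell was not computed. Within 1 kind of cell it held for 38.8% of all tested genes in vector and 23.6% in EphrinB2 cells. From 1 to 2 of the 12 reached 1 FPKM in an osteogenic library. Only Tek, a receptor and the most abundant of the 12, was higher in every library (5.67 to 6.65 against 7.51 to 11.03). Their part in the fall was not tested.

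Col18a1, the other multiplexin and the precursor of endostatin, held a steadier level. Vector cells had 8.65 and 9.74 FPKM in complete medium against 6.61 and 6.62 in osteogenic medium. EphrinB2 cells had 8.56 and 10.9 in complete medium against 3.89 and 6.57 in osteogenic medium. The osteogenic libraries were all below the complete ones, and EphrinB2 replicate 1 was the lowest. The log2 differences were −0.42 (SE 0.23, limma, adjusted p = 0.418) and −0.81 (SE 0.23, adjusted p = 0.0711). Col15a1 exceeded Col18a1 in complete medium, with ratios of 3.06 and 2.94 in vector and 4.11 and 3.81 in EphrinB2 libraries. In osteogenic medium Col18a1 was the higher of the pair, and the ratios were 0.105 and 0.0700 in vector and 0.0926 and 0.144 in EphrinB2 libraries. RefSeq lists more than 1 start for Col18a1, and its FPKM sums over them.

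Among the collagen IV chains, Col4a1 was at 921 and 905 FPKM in vector cells in complete medium against 723 and 678 in osteogenic medium. EphrinB2 cells had 871 and 1092 in complete medium against 357 and 666 in osteogenic medium. The vector libraries paired closely, whereas EphrinB2 replicate 1 in osteogenic medium was far below its partner. Osteogenic means were 76.7% of the complete medium mean in vector and 52.1% in EphrinB2 cells. The log2 differences of −0.38 (SE 0.31, limma, adjusted p = 0.637) and −1.0 (SE 0.31, adjusted p = 0.0898) did not pass.

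Col4a2, the partner of Col4a1 in the main basement membrane trimer, was at 852 and 826 FPKM, then 625 and 595 in vector cells in complete and osteogenic medium. EphrinB2 cells had 763 and 933, then 307 and 596. The pattern over libraries was that of Col4a1, high and low in step. Its log2 differences were −0.46 (SE 0.32, limma, adjusted p = 0.553) and −0.98 (SE 0.32, adjusted p = 0.101). The ratio of Col4a1 to Col4a2 stayed between 1.08 and 1.17 in the 8 libraries, the narrowest range of the 7 ratios computed. These are the genes that share the start printed above, and its part in the ratio was not tested.

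Col4a5, on the X chromosome, was at 142 and 139 FPKM, then 91.3 and 90.0 in vector cells in complete and osteogenic medium. EphrinB2 cells had 128 and 126, then 38.9 and 86.2. The media did not overlap, and again EphrinB2 replicate 1 in osteogenic medium was lowest. The log2 differences were −0.63 (SE 0.34, limma, adjusted p = 0.409) and −1.12 (SE 0.34, adjusted p = 0.0855). Col4a1 exceeded Col4a5 by 6.47-fold to 9.17-fold over the 8 libraries.

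The collagen VI chains were unequal in FPKM, which depends on merged exon length, 4380 bases for Col6a1 and 8326 for Col6a2. Col6a1 was at 312 and 306 FPKM, then 226 and 222 in vector cells in complete and osteogenic medium, and at 270 and 358, then 161 and 229 in EphrinB2 cells. The osteogenic libraries were lower in both kinds of cell. The log2 differences were −0.46 (SE 0.24, limma, adjusted p = 0.377) and −0.69 (SE 0.24, adjusted p = 0.113).

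Col6a2 was at 86.4 and 85.6 FPKM in vector cells in complete medium against 47.3 and 48.2 in osteogenic medium. EphrinB2 cells had 77.8 and 101 in complete medium against 37.3 and 48.3 in osteogenic medium. Complete libraries stood clear of osteogenic ones. Col6a2 fell in EphrinB2 cells by 1.04 on the log2 scale (SE 0.20, limma, adjusted p = 0.0224), and its mean there was 2.09-fold lower. In vector cells the difference was −0.84 (SE 0.20, adjusted p = 0.0596). With vector libraries alone it passed (limma, adjusted p = 0.000437), with 22.1% of all genes called as lower. The call in EphrinB2 cells was lost without any 1 vector library (limma, adjusted p 0.0699 to 0.0733), without EphrinB2 replicate 2 in complete medium (−0.86, adjusted p = 0.101), with weights for each group's libraries (adjusted p = 0.0932) and with EphrinB2 libraries alone (adjusted p = 0.237). The test of the difference between both kinds of cell is given below.

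Col6a3, the longest chain of the 3, was the scarcest. It was at 6.75 and 7.14 FPKM, then 4.88 and 4.26 in vector cells in complete and osteogenic medium. EphrinB2 cells had 6.30 and 12.8, then 1.40 and 3.97. Both EphrinB2 pairs were split, with replicate 2 above replicate 1 in each medium. The log2 differences were −0.51 (SE 0.40, limma, adjusted p = 0.614) and −1.54 (SE 0.40, adjusted p = 0.055), and single-library ratios in EphrinB2 cells ran from 1.59-fold to 9.10-fold lower. Its merged exons, at 11963 bases, were the longest of the 10 genes.

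The ratio of Col6a1 to Col6a2 separated the media. It was 3.57 to 3.61 in vector and 3.47 to 3.55 in EphrinB2 libraries in complete medium, and 4.61 to 4.77 and 4.32 to 4.75 in osteogenic medium. The ratio of Col6a1 to Col6a3 did not separate them cleanly: it ran from 28 in EphrinB2 replicate 2 in complete medium to 115 in EphrinB2 replicate 1 in osteogenic medium, the 2 libraries that stood apart.

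**Figure D3:**
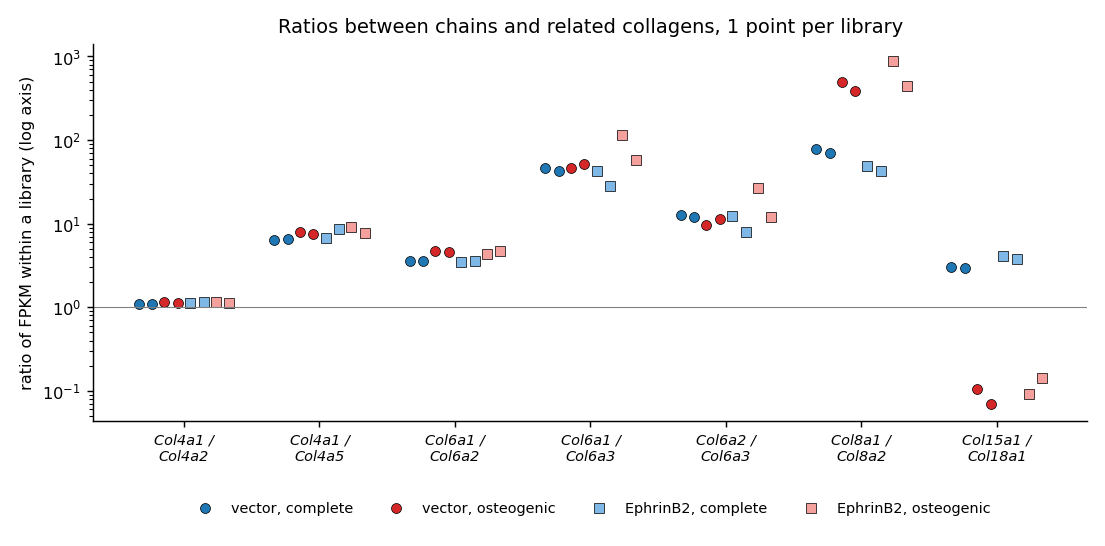
Ratios of FPKM between chains or related collagens within a library on a log axis, 1 point per library, with circles for vector and squares for EphrinB2 libraries and colours for the medium. Col4a1 over Col4a2 lies between 1.08 and 1.17 in the 8 libraries, while Col8a1 over Col8a2 and Col15a1 over Col18a1 fall into separate ranges by medium.

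Whether EphrinB2 shifted these collagens was tested next in each medium. In complete medium 0 of 10 passed in limma, against 0.0077% of all tested genes, 1 gene, and voom also called 0. At an unadjusted p under 0.05 the count of collagens was 1, against 1.29% of all genes. The one was Col8a2. As given above, both of its EphrinB2 libraries lay above both vector libraries, with means of 11.8 ± 2.03 and 6.88 ± 0.50 FPKM. The log2 difference of Col8a2 was 0.69 (95% interval 0.28 to 1.11, limma, adjusted p = 1), and 0.53 and 0.86 with EphrinB2 replicate 1 or 2 alone. Col15a1 was also above without overlap, at 38.4 ± 4.56 against 27.5 ± 1.55 FPKM, a log2 difference of 0.46 (95% interval −0.030 to 0.95). Such an ordering was found in 14.3% of all tested genes. Col4a5 was below without overlap, at 127 ± 1.13 against 141 ± 2.50 FPKM (log2 difference −0.15, 95% interval −0.96 to 0.67), an ordering found in 11.5%. The other 7 overlapped, with log2 differences from 0.0078 to 0.34. For Col6a3 the interval of −0.62 to 1.29 leaves room for a change of more than a doubling.

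In osteogenic medium 0 of 10 passed in limma for EphrinB2, against 0% of all tested genes. At an unadjusted p under 0.05 the count of collagens was 0, against 3.39% of all genes, and voom called 0. The log2 differences ran from −0.69 for Col6a3 to 0.049 for Col15a1, with 9 of 10 below 0 and a median of −0.33. Of all tested genes 49.1% were below 0, and the median over the 6430 of 4 kb or longer was −0.15. Groups did not overlap, with EphrinB2 below, for Col4a1, Col4a5, Col6a3, Col8a1 and Col18a1, an ordering found in 22.3% of all tested genes. The pair of EphrinB2 libraries differed greatly here. Replicate 1 was below the vector mean for all 10 genes, by 0.21 to 1.21 on the log2 scale. Replicate 2 deviated by −0.16 to 0.31, with 7 genes below and 3 above. With replicate 1 as the only EphrinB2 library, and assumed to vary like the other groups, Col4a1 (−0.97), Col4a2 (−0.99), Col4a5 (−1.20) and Col8a1 (−0.66) fell (limma, adjusted p 0.0204 to 0.0318), with 9.03% of all genes. With replicate 2 alone 0 of 10 passed. Replicate 1 was the library with the lower Efnb2 level of the pair (5.02 FPKM) and the higher macrophage marker sum (8140). That sum was mostly Lyz2 (6061 FPKM, against 2978 in replicate 2). Adgre1, Csf1r, Mrc1, Cd163 and Ptprc were lower in replicate 1 than in replicate 2, and the other macrophage markers were higher. The part of Efnb2 or of macrophages in these deviations was not tested.

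**Figure D4:**
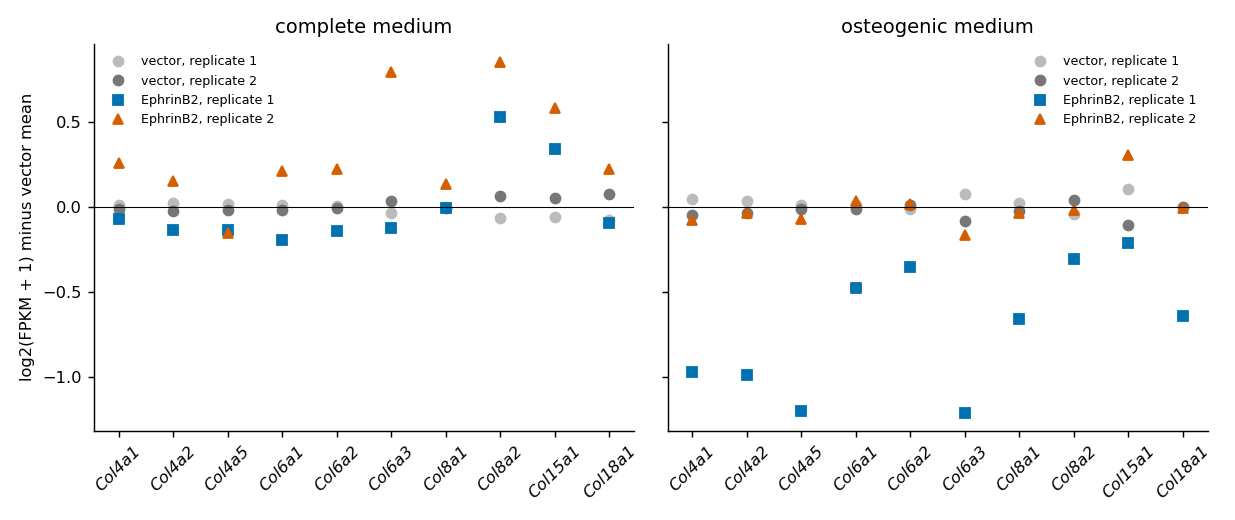
Deviation of each library from the mean of the vector libraries in the same medium, as log2(FPKM + 1), for the 10 collagens; grey circles are vector libraries, squares EphrinB2 replicate 1 and triangles EphrinB2 replicate 2. In osteogenic medium the squares lie below 0 for all 10 genes and the triangles between −0.16 and 0.31.

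In complete medium the split was smaller. EphrinB2 replicate 1 was below the vector mean for 8 of 10 genes, with a median deviation of −0.11, and replicate 2 was above it for 9 of 10, with a median of 0.23. Col8a2 and Col15a1 were above it in both replicates and Col4a5 was below it in both. Within the EphrinB2 pairs, replicate 2 exceeded replicate 1 by a median over the 10 genes of 0.32 in complete and 0.63 in osteogenic medium on the log2(FPKM + 1) scale. Over the 6430 tested genes of 4 kb or longer that median was 0.18 and 0.26. The collagens had 4380 to 11963 bases of merged exons, and the part of length was not tested beyond a fit with the length trend removed. That fit called 4 collagens as lower in osteogenic medium in vector cells, with 5.17% of all genes, and 7 in EphrinB2 cells, with 8.81%.

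The test of whether the medium acted differently in EphrinB2 cells, the interaction, called 0 of 10 collagens in limma, against 0% of all tested genes. At an unadjusted p under 0.05 the count was 1, against 1.65% of all genes, and voom called 0. All 10 estimates were below 0, that is, the decrease was the larger in EphrinB2 cells, with a median of −0.45. Col8a2 had −0.86 (95% interval −1.44 to −0.27, limma, adjusted p = 0.746) and Col6a3 −1.02 (95% interval −2.37 to 0.33, adjusted p = 0.746). Col6a2, called in EphrinB2 cells and not in vector cells, had −0.21 (95% interval −0.90 to 0.48, adjusted p = 0.775). Without both libraries that stood apart, the estimates for Col4a2, Col4a5, Col6a1, Col6a2 and Col18a1 lay above 0, from 0.065 to 0.23.

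Genes that build, modify, bind or cut these collagens were taken from 7 lists of partners. The lists were also chosen with earlier results known, so the shares of all genes beside their counts are descriptions. In limma none of the 68 tested genes reported passed for EphrinB2 in either medium or for the interaction. At an unadjusted p under 0.05 there were 0, 3 and 1 of them, against 1.29%, 3.39% and 1.65% of all genes. Among other chains of related collagens, 2 of 9 were expressed enough to be tested. Col28a1, a relative of the collagen VI chains, rose from 40.5 ± 4.55 to 96.9 ± 1.94 FPKM in vector cells (1.24, SE 0.23, limma, adjusted p = 0.0232) and by 1.45 in EphrinB2 cells. Col4a6, which shares a trimer with Col4a5 in smooth muscle, had differences of 0.059 and −0.72 and did not pass.

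Of 12 basement membrane partners reported, 1 fell in vector cells, against 3.11% of all genes. Sparc, which binds collagen IV and fibrillar collagens, fell from 2838 ± 19.1 to 855 ± 2.58 FPKM (−1.73, limma, adjusted p = 0.02). In EphrinB2 cells 3 of 12 fell, against 5.44%. Sparc fell by 1.23 there, and Lamb1, a laminin chain, fell from 71.5 ± 9.68 to 31.1 ± 8.27 FPKM (−1.19). The laminin chain Lama1, named after its values were seen, fell by 1.25 in EphrinB2 cells. Lama1 passed the filter of 1 FPKM only through its complete medium libraries (1.10 to 2.57 FPKM against 0.0754 to 0.251), which favours a fall. The median difference over these 12 was −0.48 in vector cells and −1.19 in EphrinB2 cells.

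Of 9 partners of collagen VI and microfibrils 3 rose and 1 fell in vector cells, and 3 rose and 2 fell in EphrinB2 cells, against 4.41% and 6.36% of all genes that rose. Dcn, a proteoglycan that binds collagen VI, rose from 227 ± 6.76 to 627 ± 21.2 FPKM in vector cells (1.46, limma, adjusted p = 0.0356) and by 2.16 in EphrinB2 cells. Matn2, a matrilin, rose by 1.29 and 1.42. Fbln2, a fibulin, had −1.57 and −1.99 and fell in both, and Fbn1, the chain of fibrillin microfibrils, fell by 2.60 in EphrinB2 cells. Fbn1 was at 308 and 624 FPKM in EphrinB2 cells in complete medium against 40.7 and 125 in osteogenic medium, with the replicates apart as for Col6a3.

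Among 17 genes that modify, fold or export collagen chains 5 fell and 0 rose in vector cells, and 5 fell and 0 rose in EphrinB2 cells, against 3.11% and 5.44% of all genes that fell. In limma 11 and 8 of the 17 had an unadjusted p under 0.05, against 19.5% and 30.2% of all genes. Serpinh1, the collagen chaperone of the endoplasmic reticulum, fell from 982 ± 5.71 to 378 ± 3.26 FPKM in vector cells (−1.37, limma, adjusted p = 0.00723) and fell by 1.33 in EphrinB2 cells. P4ha3, a prolyl hydroxylase subunit, fell from 20.5 ± 0.0945 to 5.06 ± 0.793 FPKM (−1.83), and the difference in EphrinB2 cells was −1.82. The other 3, named after their values were seen, were the hydroxylases P4ha1 (−1.31 and −1.22), Plod2 (−1.30 and −1.32) and P3h1 (−0.87 and −0.73). The median over the list was −0.56 in vector cells and −0.57 in EphrinB2 cells.

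Crosslinking enzymes had 3 falls of 7 in vector and 5 of 7 in EphrinB2 cells, with 0 rises in either, against 3.11% and 5.44% of all genes that fell. In limma 4 and 6 of the 7 had an unadjusted p under 0.05, against 19.5% and 30.2%. Pxdn, the peroxidase that forms the sulfilimine bonds of the collagen IV network, fell from 22.4 ± 0.666 to 7.92 ± 0.101 FPKM in vector cells (−1.39, adjusted p = 0.0349 in limma) and fell by 1.94 in EphrinB2 cells. Loxl2, a lysyl oxidase that acts on collagen IV, fell from 162 ± 6.72 to 45.7 ± 3.08 FPKM (−1.80), and the difference in EphrinB2 cells was −2.20. Named after their values were seen, Loxl1 fell in both (−1.02 and −1.03), and Loxl4 (−1.60) and Loxl3 (−0.90) fell in EphrinB2 cells.

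Receptors of collagens had 2 falls of 10 tested in vector and 3 in EphrinB2 cells, with 0 rises in either, against 3.11% and 5.44% of all genes that fell. In limma 3 and 6 of the 10 had an unadjusted p under 0.05, against 19.5% and 30.2%. Itga11, an integrin chain that binds fibrillar collagen, fell from 44.6 ± 0.00408 to 7.75 ± 0.284 FPKM in vector cells (−2.38, adjusted p = 0.00957 in limma) and fell by 2.87 in EphrinB2 cells, where Cd44, a receptor for hyaluronan and collagen, also fell by 1.43. The integrin chain Itga2, named after its values were seen, fell in both (−1.11 and −1.01). Itga2 passed the filter of 1 FPKM only through its complete medium libraries (1.28 to 2.09 FPKM against 0.136 to 0.420), which favours a fall. Of 11 proteases tested, 1 rose and 1 fell in each kind of cell, where 4.41% and 3.11% of all genes did so in vector and 6.36% and 5.44% in EphrinB2 cells. Mmp14, a membrane-bound matrix protease, fell by 0.95 in vector cells and fell by 1.17 in EphrinB2 cells. Ctss, a cathepsin common in macrophages, rose in EphrinB2 cells by 1.86, from 53.4 ± 10.6 to 206 ± 97.2 FPKM, beside the higher macrophage marker sum in osteogenic medium. The riser in vector cells was Mmp9 (1.79), named after its values were seen. Mmp9 passed the filter of 1 FPKM only through osteogenic libraries (4.15 and 3.88 FPKM in vector cells, against 0.452 and 0.440 in complete medium), which favours a rise.

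**Figure D5:**
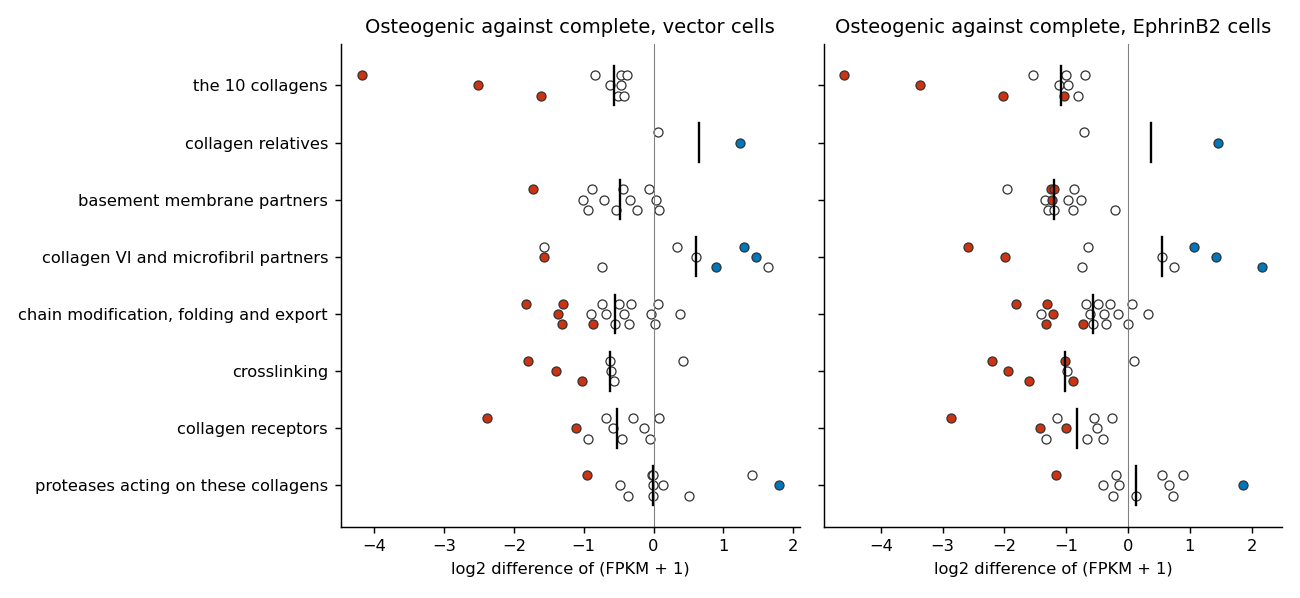
Log2 differences of (FPKM + 1) between osteogenic and complete medium for the 10 collagens and 7 lists of partner genes, 1 point per tested gene, in vector cells (left) and EphrinB2 cells (right). Red points fell, blue points rose and open points did not pass the adjusted threshold of 0.05; bars are medians, −0.57 and −1.08 for the collagens.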

How the data were processed

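Whole transcriptomes of 8 libraries were measured by RNA sequencing of Trizol-extracted total RNA, per the labels' protocols. The authors deposited 1 FPKM value per gene and library, and the tools named per the submitters' processing notes are HISAT2 2.0.5, featureCounts 1.5.0-p3, DESeq2 1.16.1 and CASAVA, with mm10 as the build. Strand setting, filters and annotation release were not given in the sources used here. GENCODE M21 (GRCm38, the same assembly) supplied symbols and merged exon lengths and held 54495 of the 54532 identifiers.

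FPKM multiplied by exon length gave whole reads (within 0.02) in 98.1% to 98.3% of the genes below 50 reads, and so the depth. Values were analysed as log2(FPKM + 1) for 12994 genes with at least 1 FPKM in at least 2 libraries. All libraries entered 1 limma 3.58.1 model (R 4.3.3) with a mean per group, two-sided moderated tests and a trend of variance with level (4 residual and 2.72 prior degrees of freedom). P-values were adjusted by Benjamini-Hochberg over all genes, and 0.05 was the threshold. No labels pair libraries. The model was tested on simulated data. It takes the spread as equal in all groups, although EphrinB2 pairs differed more than vector pairs, so its p-values can be too small for EphrinB2 cells and too large for vector cells.

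The members and all lists were chosen with earlier results of these data known. A gene of the partner lists is not reported here and was left out of their counts. Text names the 10 members in every comparison and, from each partner list, up to 2 rises and 2 falls past the threshold with the largest change and a mean of at least 2 FPKM. Alternatives covered the pseudocount, filters, scaling, variance model, library weights, gene length, the samples fitted and each library left out. TPM scaling and limma voom on recovered reads (12366 genes) were chosen after the data were seen.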

Additional observations from a re-analysis of the deposited data

How the results depend on the processing

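Col15a1 and Col8a2 fell in both kinds of cell under all 20 alternatives (log2 −5.50 to −4.07 and −4.05 to −2.44 in vector cells, −5.94 to −4.22 and −5.68 to −3.05 in EphrinB2 cells), and all 10 collagens were below 0 there. The number of collagens called for medium in vector cells was 10 with library weights, with vector libraries alone and without both libraries that stood apart, and 2 to 5 on leaving out 1 library. In EphrinB2 cells it was 7 with the length trend removed, 2 with EphrinB2 libraries alone, 9 without both libraries (15.7% of all genes fell) and 3 to 10 on leaving out 1. For EphrinB2 in osteogenic medium it was 0 to 4 on leaving out 1. Without both libraries, each EphrinB2 group holds 1 library, and the spread comes from the vector pairs alone. The count of 9, and any other count of that fit for EphrinB2 cells, thus rests on no EphrinB2 replicates. Such counts are listed as a setting only. Leaving out 1 library likewise leaves 1 library in its group. Over all genes the model of 8 libraries called 977 and 1533 for medium in vector and EphrinB2 cells. Alternatives gave 1555 with the length trend removed in vector cells, 5521 and 335 with library weights, 5273 and 153 with only the groups compared, 3858 in EphrinB2 cells and 5274 in vector cells without both libraries, and 169 to 1749 and 635 to 5686 on leaving out 1. For EphrinB2 in complete medium the count of all genes was 1, with 13 without a filter and 0 to 1 on leaving out 1 library in osteogenic medium. It was 0 for a pseudocount of 0.1, a filter of 5 FPKM, the length trend removed, library weights, only the groups compared, TPM scaling and voom. In osteogenic medium it was 14 without a filter, 1 without both libraries and 0 to 2742 on leaving out 1, with the highest value where EphrinB2 replicate 1 was alone. The interaction had 22 without a filter. The causes were not tested beyond the samples each setting leaves out.

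Signs changed for values that passed no test. For EphrinB2 in complete medium, quantile scaling gave Col4a1 −0.063, Col4a2 −0.26 and Col6a1 −0.046. Removal of the length trend gave Col4a2 −0.018. TPM scaling gave Col4a2 −0.047, Col6a1 −0.045 and Col6a2 −0.013, and voom gave Col4a2 −0.069, Col6a1 −0.068, Col6a2 −0.035, Col8a1 −0.011 and Col18a1 −0.0031. Without both libraries the values were Col4a1 −0.069, Col4a2 −0.14, Col6a1 −0.19, Col6a2 −0.14, Col6a3 −0.12, Col8a1 −0.0026 and Col18a1 −0.091. Leaving out 1 library gave Col4a1 −0.069 to 0.26, Col4a2 −0.14 to 0.15, Col6a1 −0.19 to 0.21, Col6a2 −0.14 to 0.23, Col6a3 −0.12 to 0.79, Col8a1 −0.0026 to 0.13 and Col18a1 −0.091 to 0.23. For EphrinB2 in osteogenic medium, quantile scaling gave Col8a2 0.11, the length trend removed Col6a2 0.033, TPM scaling Col15a1 −0.089, voom Col15a1 −0.035, and the fit without both libraries Col6a1 0.035 and Col6a2 0.016. Leaving out 1 library gave Col15a1 −0.21 to 0.31, Col6a1 −0.47 to 0.035 and Col6a2 −0.35 to 0.016. For the interaction, removal of the length trend gave Col6a2 0.027, and the fit without both libraries gave Col4a2 0.10, Col4a5 0.065, Col6a1 0.23, Col6a2 0.16 and Col18a1 0.084. Leaving out 1 library gave Col4a5 −1.05 to 0.074 and Col6a1 −0.48 to 0.026.

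No paired analysis was possible because the labels give no numbers shared between groups. The fit of only the groups compared was not run for the interaction, which needs all groups. With 2 libraries a group, a collagen that did not pass may still have changed.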
